A study of Homo sapiens with 46 samples.

Results

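Described here are 10 genes linked to the goblet and secretory lineage of epithelia. They are the trefoil factors TFF1, TFF2 and TFF3, the mucins MUC2, MUC5AC and MUC13, the protein disulfide isomerase AGR2, and the transcription factors SPDEF, ATOH1 and KLF4. The RNA came from bulk cultures of a carcinoma line, and goblet cells themselves were not measured. The genes were taken by symbol from the 62756 genes of a raw count table, 10 of 62756 in all. They were chosen by a rise of TFF3 counts in the Lamin B1 line, which is a measured value of these same libraries. All changes in that line, and its difference from the parental line, are therefore given as a description without a test, and tests were kept to the other lines.

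RNA was sequenced from 46 libraries of DLD-1 cells, an established line of human colorectal adenocarcinoma. The untagged parental line was set beside 3 tagged lines, named LAC, LB1 and LB2 after the lamin whose endogenous gene was tagged (Lamin A/C, B1 and B2). The tag is an N-terminal auxin-inducible degron, which sends the protein to the proteasome when the plant hormone auxin is present. Every line was given auxin at 1 mM, with DMSO as its solvent, and collected after 0, 16 or 96 h. The parental wells served as the reference for changes over the same hours without a tagged lamin to lose. No group kept for 16 or 96 h without auxin is named in the sources used here. Auxin, its solvent and time in culture can therefore not be told apart in the parental changes. Of the 12 groups, 10 held 4 replicates, and LB1 at 0 h and LB2 at 96 h held 3. Replicates were wells of a multi-well plate, so p-values measure the spread between wells. Whether a tagged line is a single clone and whether the wells at 0 h received DMSO is not given in the sources used here.

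Goblet cells secrete the mucus that covers the gut. Their granules are filled with gel-forming mucins, of which MUC2 is the main one in the colon and MUC5AC the main one of the gastric surface, and with trefoil factors, small disulfide-rich peptides that are released with mucins and aid the repair of the epithelium. MUC13 is a mucin anchored in the apical membrane. AGR2 sits in the endoplasmic reticulum, where it takes part in mucin folding. ATOH1 commits an intestinal progenitor to the secretory fate and is held down by Notch signalling, SPDEF acts after it in goblet cell maturation, and KLF4 is a zinc finger factor of differentiating epithelium that goblet cells of the colon need.

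Promoter windows of 6 of the 10 genes were found in the RefSeq table of GRCh38.p14 (MUC2, MUC13, SPDEF, AGR2, ATOH1 and KLF4), each with 250 bases before and 50 bases after the start site. The windows of AGR2 and MUC13 are printed because these genes passed a test below, and that of KLF4 because no setting tried called it in any comparison. Sequences run 5′ to 3′ along the gene, and capitals mark the matches to the motifs searched.
AGR2 (chr7:16804950-16805249, minus strand): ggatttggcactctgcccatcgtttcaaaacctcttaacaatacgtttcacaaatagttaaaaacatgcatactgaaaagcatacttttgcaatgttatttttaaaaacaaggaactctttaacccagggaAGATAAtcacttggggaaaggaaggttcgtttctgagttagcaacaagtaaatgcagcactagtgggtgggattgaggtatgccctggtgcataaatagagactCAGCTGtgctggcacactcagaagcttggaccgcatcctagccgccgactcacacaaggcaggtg
MUC13 (chr3:124934702-124935001, minus strand): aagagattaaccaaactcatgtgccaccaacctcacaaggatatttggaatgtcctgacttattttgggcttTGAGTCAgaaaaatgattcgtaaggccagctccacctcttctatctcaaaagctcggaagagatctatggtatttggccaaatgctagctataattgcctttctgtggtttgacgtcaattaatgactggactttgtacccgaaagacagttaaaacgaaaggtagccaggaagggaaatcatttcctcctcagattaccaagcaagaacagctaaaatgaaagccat
KLF4 (chr9:107489720-107490019, minus strand): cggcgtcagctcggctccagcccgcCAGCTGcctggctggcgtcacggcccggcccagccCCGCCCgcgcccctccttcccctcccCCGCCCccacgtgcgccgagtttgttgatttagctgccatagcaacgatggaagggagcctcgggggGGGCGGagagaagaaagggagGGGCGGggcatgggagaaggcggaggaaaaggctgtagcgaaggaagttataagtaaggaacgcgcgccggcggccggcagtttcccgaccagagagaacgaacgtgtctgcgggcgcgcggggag

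Motifs were searched on both strands, and a match is a description of the letters only. In AGR2 the E-box CAGCTG stood at position -15 from the start site and the GATA motif AGATAA at -119. Among 35116 windows of the same 300 bases, 17.9% held that E-box and 10.3% that GATA motif. In MUC13 the only match was the AP-1 motif TGANTCA at -178, which 7.71% of windows held. KLF4 held the E-box at -225 and 4 matches to the GC box GGGCGG, a motif found in 45% of windows. The TATA box TATAAA (11.5% of windows), the FOXA motif TGTTTAC (3.42%) and the CDX motif TTTATNG (9.73%) matched nowhere in these 3 windows, and none of the 7 motifs matched in SPDEF or ATOH1. The windows of AGR2, MUC13 and KLF4 lie inside the span that the count table gives for each gene, which begins farther upstream.

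Library totals ran from 479446 to 37309421 counts with a median of 11533218, and 5 of the 6 libraries under 5000000 were from 0 h. Values below are CPM, counts scaled to a library of 1000000 after correction by the trimmed mean of M-values (TMM), as mean ± SD over the wells of a group. In 3 libraries the log2 difference from the other wells of the group had an SD of 0.728 to 0.792 over 8622 genes, against at most 0.439 in the others: replicate 1 of LAC at 0 h, replicate 1 of LB2 at 0 h and replicate 3 of LB2 at 16 h. For members called in LAC or LB2, values without replicate 1 at 0 h of that line are given beside the result. The cells expressed the epithelial genes EPCAM (463 CPM), CDH1 (924 CPM) and KRT8 (4223 CPM) in the mean of all libraries. The 17 markers of absorptive colonocytes summed to 190 to 401 CPM per library, mostly from CDX2 (148 CPM), KRT20 (59.9 CPM), HNF4A (40.9 CPM) and CA2 (22.7 CPM), while 3 of them, FABP1, CEACAM7 and MS4A12, had 0 counts in all 46. The 8 markers of stromal and blood cells summed to 0 to 6.80 CPM per library. The degron acts on protein, and the transcripts of the tagged lamins were present in their own lines: LMNA averaged 270 to 435 CPM in the LAC groups (parental 569 to 738), LMNB1 86.5 to 124 in LB1 (parental 147 to 183) and LMNB2 143 to 172 in LB2 (parental 283 to 414).

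Per kilobase of transcript, AGR2 was by far the most abundant of the 10 genes, at a mean of 148 CPM per kb over all libraries. TFF3 (12.5 CPM per kb), TFF1 (11.6), KLF4 (9.78) and MUC5AC (9.22) followed at similar levels. TFF2 (1.4), MUC13 (0.957) and SPDEF (0.331) were low. ATOH1 (0.0437) and MUC2 (0.0221), the gene of the main colonic goblet cell mucin, were close to the detection limit. In bulk RNA, fewer expressing cells and less RNA per cell cannot be told apart, for these and all values that follow. Among other goblet cell products, CLCA1 was detected in 1 of 46 libraries and RETNLB in 3, with the remaining 43 at 0. SYTL2 (82.5 CPM), a regulator of granule exocytosis, and ERN2 (48.7 CPM), the endoplasmic reticulum stress sensor of mucus-secreting epithelium, were present in every library.

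Of the 10 genes, 8 passed the filter on low counts and were tested, and MUC2 and ATOH1 did not. The filter asked for about 0.867 CPM in enough libraries, so the 8 do not stand for all 10. No well reached that level for TFF2 in LAC, nor for TFF2 in LB1 and the parental line at 0 h and 16 h. The same held for SPDEF in LB1 at 0 h and 16 h, the parental line at 0 h, and LAC at 16 h and 96 h. At 96 h, 2 of the 8 were called in the parental line, 3 in LAC and 2 in LB2, all of them higher. Of all 21484 genes tested, 7.78% were called in the parental line at 96 h, 15.4% in LAC and 3.55% in LB2, in either direction. Groups at 0 h and 96 h did not overlap for 16.7% of all genes in the parental line, 17.6% in LAC and 13.5% in LB2. The median log2 change of the 8 genes was 0.57 in the parental line, 0.95 in LAC and 0.85 in LB2, beside medians over all genes of -0.03, 0.03 and -0.00. At 16 h none of the 8 was called by edgeR's quasi-likelihood test in the parental line (9.01% of all genes called), LAC (1.78%) or LB2 (1.81%), with 0, 2 and 3 genes at an unadjusted p under 0.05. DESeq2 called 0 in each of these, and limma voom called 0, 1 and 0.

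**Figure D1:**
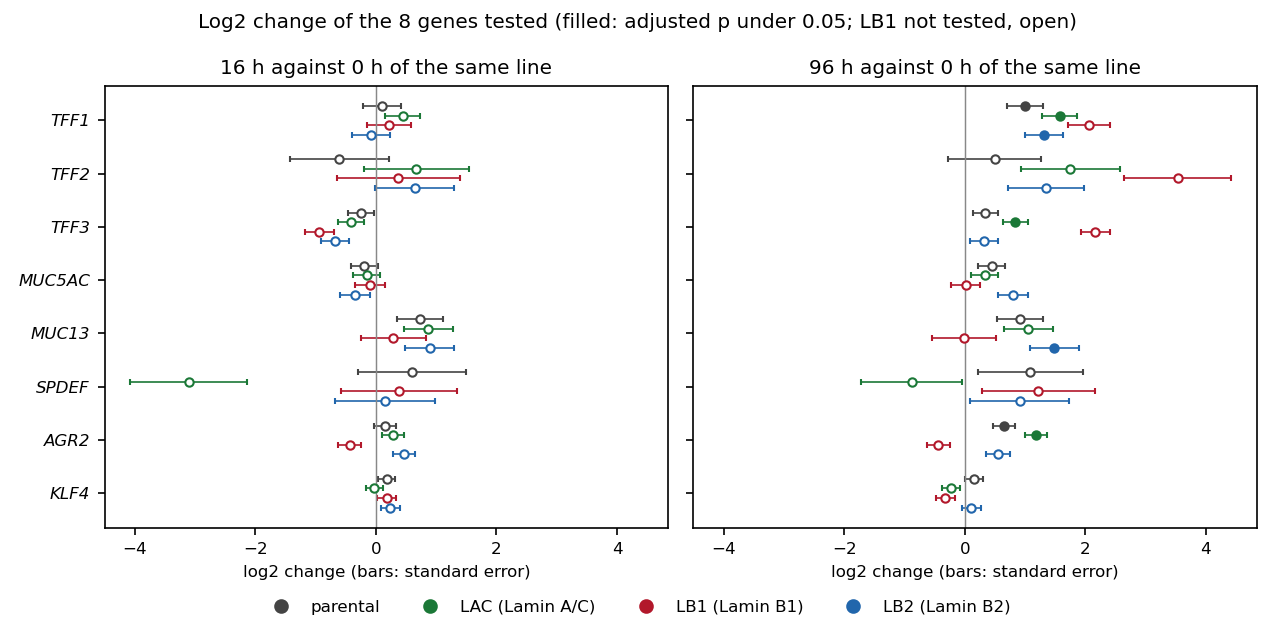
Log2 change of the 8 tested genes at 16 h (left) and 96 h (right) against 0 h of the same line, with bars for the standard error and filled points where the adjusted p was under 0.05; LB1 was not tested and is open throughout. At 96 h the filled points are TFF1 in the parental line, LAC and LB2, AGR2 in the parental line and LAC, TFF3 in LAC and MUC13 in LB2, all to the right of 0, and AGR2 in LB1 lies to the left at -0.44.

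In none of the 4 tests of a tagged line's response against the parental response was a member called by edgeR. The share of all genes called was 0.116% for LAC at 16 h, 7.4% for LAC at 96 h, 0.00465% for LB2 at 16 h and 0.368% for LB2 at 96 h. Unadjusted p was under 0.05 for 1, 1, 0 and 0 members in these comparisons. DESeq2 called 0 in each, and limma voom called 0, 0, 0 and 1. For these 8 genes, a called change in LAC or LB2 was therefore not shown to differ from the change in the parental line over the same hours of auxin.

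TFF3, the trefoil factor of intestinal goblet cells, lies on chromosome 21 at 42311667 to 42315409 (GRCh38, minus strand). In the LB1 line it stood at 8.08, 9.29 and 10.8 CPM at 0 h, at 4.9, 4.45, 5.7 and 4.55 CPM at 16 h, and at 30.9, 48.2, 52.7 and 36.1 CPM at 96 h. Every 16 h well was below every 0 h well, and every 96 h well was above all 42 libraries of the other groups. The log2 change was -0.94 ± 0.24 (SE) at 16 h and 2.17 ± 0.24 at 96 h, a 4.50-fold higher level, and the 96 h change exceeded that of the parental line by 1.82 ± 0.31. These LB1 values are those by which the genes were chosen and carry no test.

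TFF3 was tested in the other lines. Parental wells held 8.65, 8.09, 10.8 and 10.9 CPM at 0 h, 6.01 to 11.9 CPM at 16 h and 8.17, 13.7, 16.8 and 10.2 CPM at 96 h, with overlapping groups. Its log2 change in the parental line at 96 h was 0.34 ± 0.21 (edgeR adjusted p = 0.337). LAC wells held 5.5, 6.21, 7.94 and 5.96 CPM at 0 h and 11.4, 10.6, 12.8 and 11.2 CPM at 96 h, without overlap. TFF3 rose in LAC at 96 h by a log2 change of 0.84 ± 0.21 (edgeR adjusted p = 0.0043, 4 of 4 wells above all 0 h wells), and the call held in all 19 alternatives (log2 0.78 to 1.06, adjusted p 1.68e-05 to 0.0214), with 0.82 without replicate 1 at 0 h. LB2 wells averaged 10.2 ± 2.61 CPM at 0 h (n = 4) and 12.0 ± 1.27 CPM at 96 h (n = 3), a log2 change of 0.32 ± 0.23 (edgeR adjusted p = 0.541).

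In order of mean level, LB1 at 96 h (42.0 ± 10.2 CPM, n = 4) was followed by the parental line, LB2 and LAC at 96 h (12.2, 12.0 and 11.5 CPM), then by LB2, the parental line and LB1 at 0 h (10.2, 9.59 and 9.38 CPM). The parental line (8.10 CPM) and LB2 (6.64 CPM) at 16 h, LAC at 0 h (6.40 CPM), and LB1 (4.90 CPM) and LAC (4.81 CPM) at 16 h closed the order. Only the first step, from LB1 at 96 h to the next group, was a gap without overlap between neighbouring groups in this order.

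**Figure D2:**
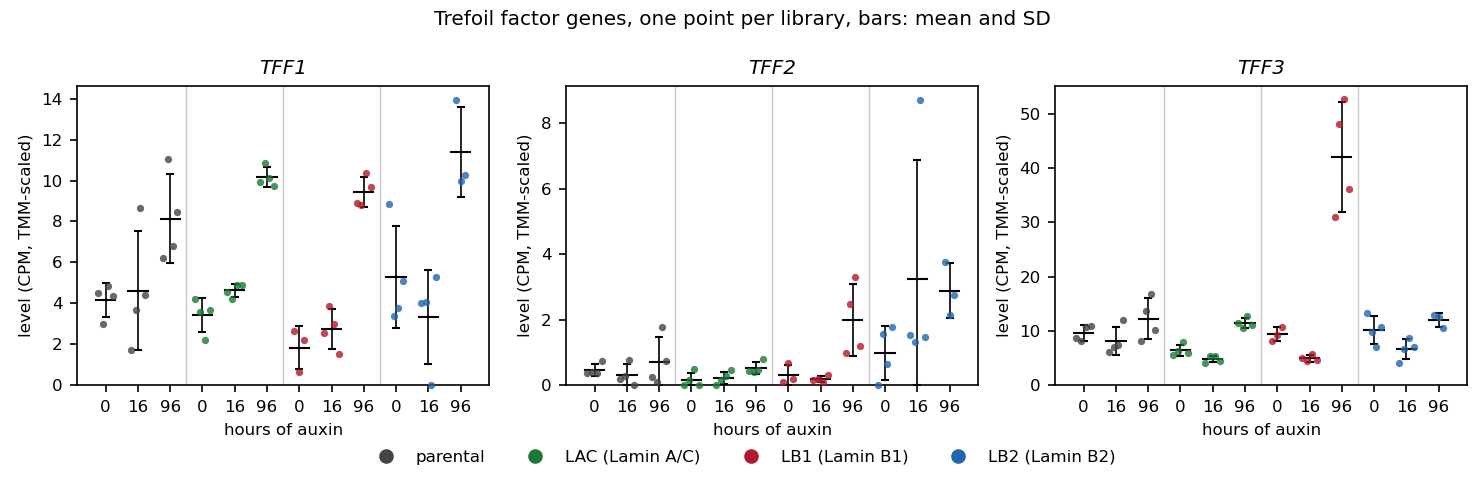
Levels of TFF1, TFF2 and TFF3 in CPM against hours of auxin in the 4 lines, with 1 point per library and bars for the mean and SD of each group. TFF3 in LB1 at 96 h lies between 30.9 and 52.7 CPM, above every other library, while TFF1 is higher at 96 h than at 0 h in each line.

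TFF1, the trefoil factor best known from the gastric surface and from estrogen-responsive tumours, lies at 42362282 to 42366535 on the minus strand of the same chromosome and was higher at 96 h in every line. Parental wells held 4.51, 2.97, 4.84 and 4.35 CPM at 0 h and 6.21, 11.1, 6.78 and 8.45 CPM at 96 h. LAC wells held 4.21, 3.59, 2.22 and 3.70 CPM at 0 h and 9.95, 10.8, 10.1 and 9.76 CPM at 96 h. LB2 wells held 8.87, 3.4, 3.77 and 5.10 CPM at 0 h and 13.9, 10 and 10.3 CPM at 96 h. In each of these lines the 96 h wells lay above all 0 h wells. TFF1 rose by a log2 change of 1.00 ± 0.30 in the parental line (edgeR adjusted p = 0.0295), 1.57 ± 0.29 in LAC (adjusted p = 0.000156) and 1.32 ± 0.32 in LB2 (adjusted p = 0.00889).

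The TFF1 call in LAC held in all 19 alternatives (adjusted p 1.36e-07 to 0.00274), with 1.63 without replicate 1 at 0 h. In the parental line it was lost in 7 of 19 (adjusted p 0.00628 to 0.0978), with log2 changes of 0.89 and 1.02 without replicate 2 or 4 at 0 h and 0.86 and 0.98 without replicate 2 or 4 at 96 h. In LB2 it was lost in 4 of 18 (adjusted p 7.44e-05 to 0.134), with log2 changes of 1.12 and 1.2 without replicate 2 or 3 at 0 h and 1.16 without replicate 1 at 96 h, and it held without replicate 1 at 0 h (1.54). The LAC response exceeded the parental one by 0.57 ± 0.42 (edgeR adjusted p = 0.424) and the LB2 response by 0.32 ± 0.44 (adjusted p = 0.801). In LB1, described without a test, TFF1 stood at 2.63, 0.664 and 2.21 CPM at 0 h and 8.89, 8.79, 10.4 and 9.67 CPM at 96 h, a log2 difference of 2.06 ± 0.35.

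TFF2, a trefoil factor of gastric mucous neck cells, had only 507 counts in all 46 libraries and 0 in 5 of them. LB1 wells held 0.0992, 0.664 and 0.184 CPM at 0 h and 0.988, 2.49, 3.31 and 1.2 CPM at 96 h, the latter from 12 to 64 counts. This is a log2 difference of 3.53 ± 0.89, again without a test. LB2 wells reached 3.77, 2.13 and 2.76 CPM at 96 h from 0, 1.55, 0.644 and 1.78 CPM at 0 h, which gave a log2 change of 1.35 ± 0.63 (edgeR adjusted p = 0.276). LAC (log2 1.75 ± 0.83, adjusted p = 0.148) and the parental line (0.50 ± 0.77, adjusted p = 0.751) held under 2 CPM in every well. Markers of the gastric pit and gland, 10 genes that TFF1 and TFF2 accompany in the stomach, summed to 6.58 to 10.4 CPM in LB1 at 96 h against 0.664 to 2.49 CPM at 0 h. In LB2 they summed to 4.68 to 7.02 CPM at 96 h against 0.554 to 4.84 CPM at 0 h. PSCA and CLDN18 were the highest of them in the mean of all libraries (1.45 and 0.945 CPM), and PSCA reached 8.17 CPM. GKN1 was at 0 in 45 libraries and GKN2 in 43, and PGC, SOX2, BARX1, ANXA10 and VSIG1 averaged 0.111 CPM or less. The sums thus rest on few of the 10 genes. Only 3 passed the filter on low counts, with a median log2 change at 96 h of 0.50 in LB1, without a test, and 1.11 in LB2. The part of such cells in the trefoil values was not tested.

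Within 250 kb of the trefoil genes, TMPRSS3 and SLC37A1 were the only others with a symbol and a mean of at least 1 CPM. TMPRSS3, a transmembrane serine protease, fell in the parental line at 96 h by a log2 change of -0.80 ± 0.14 (edgeR adjusted p = 1.71e-04) while TFF1 rose there. SLC37A1 showed a log2 change of 0.28 ± 0.14 (adjusted p = 0.204). In LB1 at 96 h the differences, without a test, were -0.81 for TMPRSS3 and 0.39 for SLC37A1, beside 2.17 for TFF3.

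MUC5AC, at 1157953 to 1201138 on chromosome 11, was highest in LB1 at every time. LB1 wells held 386, 362 and 259 CPM at 0 h, 413, 314, 264 and 264 CPM at 16 h and 292, 307, 362 and 397 CPM at 96 h. Every LB1 well lay above every well of the other 3 lines, and the log2 difference from the parental line at 0 h was 1.33 ± 0.24, given without a test. Parental wells held 141, 130, 127 and 134 CPM at 0 h, 102 to 138 CPM at 16 h and 130, 232, 168 and 195 CPM at 96 h. The log2 change in the parental line at 96 h was 0.45 ± 0.23 (edgeR adjusted p = 0.228).

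LB2 wells held 145, 48.8, 46.4 and 69.6 CPM of MUC5AC at 0 h, where the 145 belongs to replicate 1, a library that stood apart. Of the 8 genes, 2 were called in LB2 against the parental line at 0 h, MUC5AC and AGR2, both lower, beside 8.21% of all genes. MUC5AC was lower by -0.86 ± 0.24 (edgeR adjusted p = 0.0148), with 3 of 4 LB2 wells under all parental wells. The call was lost in 3 of 19 alternatives (adjusted p 3.65e-06 to 0.166), with values of -0.68 and -0.66 without replicate 2 or 3 of LB2, and it held without replicate 1 of LB2 (-1.27). In LB2 at 96 h wells held 98.1, 151 and 135 CPM, a log2 change of 0.80 ± 0.25 (adjusted p = 0.059). That change missed the threshold in the main test and passed it in 11 of 18 alternatives (adjusted p 2.53e-06 to 0.433), with 1.25 without replicate 1 at 0 h, 0.98 without replicate 1 at 96 h and 1.24 without the libraries that stood apart. LAC averaged 90.8 ± 19.3, 80.9 ± 19.3 and 113 ± 36.9 CPM at the 3 times, with no call.

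MUC13, on chromosome 3, was a low gene and followed another order, with LB1 lowest. LB2 wells held 0.554, 2.60, 2.85 and 4.59 CPM at 0 h and 5.55, 8.65 and 9.52 CPM at 96 h, without overlap. MUC13 rose in LB2 at 96 h by a log2 change of 1.49 ± 0.41 (edgeR adjusted p = 0.0277). The call was lost in 6 of 18 alternatives (edgeR adjusted p 0.000611 to 0.15), with values of 1.35, 1.42 and 1.49 without replicate 1, 2 or 3 at 0 h and 1.43 and 1.33 without replicate 2 or 3 at 96 h. The log2 change at 96 h was 1.06 ± 0.41 in LAC (adjusted p = 0.0681) and 0.92 ± 0.39 in the parental line (adjusted p = 0.134). LB1 groups averaged 0.729 to 1.19 CPM, and LB1 at 0 h was -1.67 ± 0.52 from the parental line, without a test.

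MUC2 had 137 counts over the 46 libraries, at most 13 in any, and 0 in 12. It was not tested. Where a library has none, up to 3 counts remain possible, or 0.0804 to 6.26 CPM from the deepest to the shallowest library, so a change in MUC2 was not detectable at this depth. Of 11 other mucin genes 6 were tested. MUC20, a membrane mucin, was called higher at 96 h in the parental line (log2 1.02, edgeR adjusted p = 0.002), LAC (0.85, adjusted p = 0.0047) and LB2 (1.6, adjusted p = 9.84e-06). These 3 calls held in all alternatives tried. MUC20 was the only 1 of the 6 called at that time, beside 7.78%, 15.4% and 3.55% of all genes in these lines. In the parental line at 16 h, 1 of the 6 was called higher and 2 lower, beside 9.01% of all genes.

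**Figure D3:**
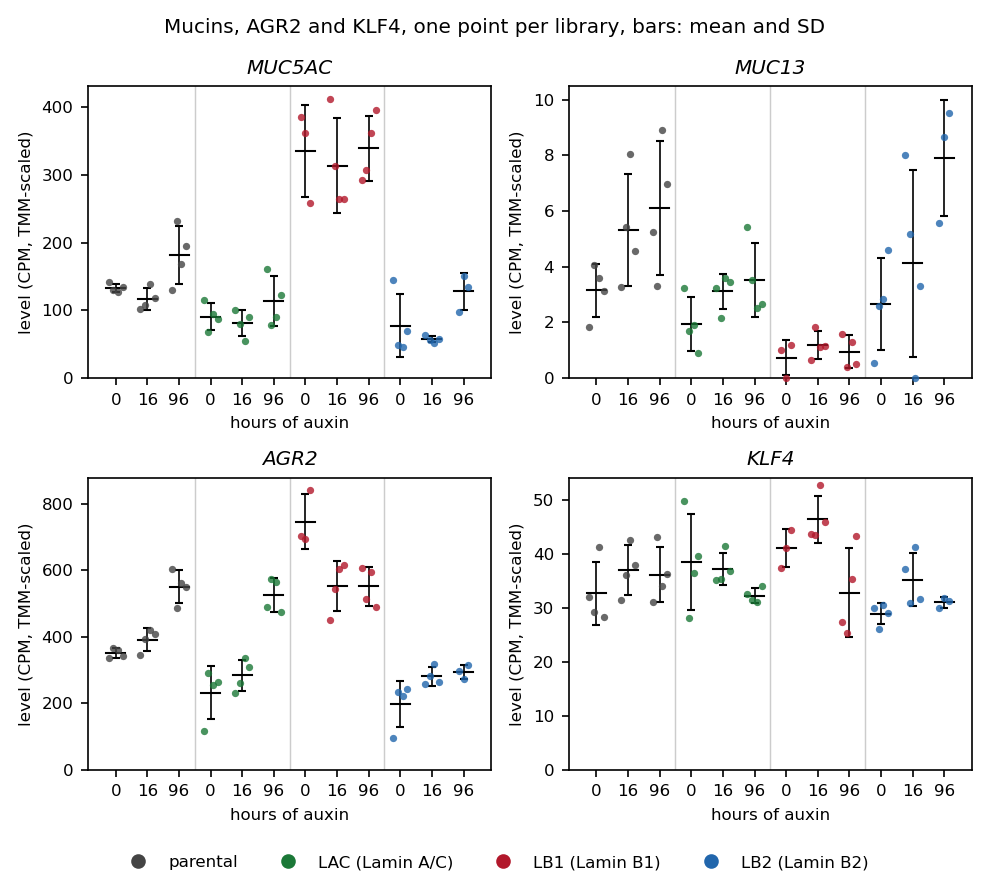
Levels of MUC5AC, MUC13, AGR2 and KLF4 in CPM against hours of auxin in the 4 lines, with 1 point per library and bars for the mean and SD. MUC5AC is highest in LB1 at all times (259 to 413 CPM), AGR2 in LB1 starts at 696 to 841 CPM and is lower afterwards while it is higher at 96 h in the other lines, and KLF4 stays between 25.4 and 52.8 CPM.

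AGR2, at 16791811 to 16833433 on chromosome 7, was lower after auxin in LB1 and higher at 96 h in the other lines, a difference in direction that was not tested. Parental wells held 335, 367, 362 and 343 CPM at 0 h, 344, 393, 420 and 410 CPM at 16 h and 606, 487, 562 and 550 CPM at 96 h. LAC wells held 116, 293, 254 and 265 CPM at 0 h, 232 to 336 CPM at 16 h and 491, 575, 566 and 475 CPM at 96 h. The 96 h wells of both lines lay above all their 0 h wells. AGR2 rose at 96 h by a log2 change of 0.65 ± 0.18 in the parental line (edgeR adjusted p = 0.0187) and 1.18 ± 0.18 in LAC (adjusted p = 1.1e-05), a 1.57-fold and a 2.26-fold change. The responses of the lines differed by 0.53 ± 0.26 (adjusted p = 0.198).

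The LAC call held in all 19 alternatives (adjusted p 6.8e-11 to 0.0167), with 0.97 without replicate 1 at 0 h, the well at 116 CPM that stood apart. The parental call was lost in 3 of 19 (adjusted p 1.27e-05 to 0.0554), with 0.64 without replicate 4 at 0 h, 0.60 without replicate 1 at 96 h and 0.55 with scaling by library size only. LB2 wells held 95.4, 234, 222 and 244 CPM at 0 h and 296, 273 and 316 CPM at 96 h, a log2 change of 0.55 ± 0.19 (edgeR adjusted p = 0.106) that passed the threshold in 5 of 18 alternatives, among them the fit with the replicate number as a block (0.60, adjusted p = 0.0429). Without replicate 1 at 0 h, the well at 95.4 CPM that stood apart, the change in LB2 was 0.35 (adjusted p = 0.332), and without all 3 such libraries 0.33 (adjusted p = 0.0974). Over 20450 genes, the log2 change correlated with GC content at a Spearman rho of -0.45 in LAC and -0.15 in LB2 at 96 h. With that trend removed, AGR2 in LAC changed by 0.96.

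In LAC, AGR2 at 0 h stood below its parental level by a log2 difference of -0.59 ± 0.18 (edgeR adjusted p = 0.0191), the only 1 of the 8 genes called there, beside 15.8% of all genes. This call was lost without replicate 1 of LAC (-0.35), without replicate 2 of the parental line (-0.52) and with the compared groups fitted alone (adjusted p 0.000796 to 0.163 over all 19). In LB2 AGR2 was lower at 0 h by -0.81 ± 0.18 (adjusted p = 0.00253), and 1 of 19 alternatives, the compared groups fitted alone, lost the call (adjusted p 4.84e-08 to 0.0791), while without replicate 1 of LB2 the difference was -0.56 (adjusted p = 0.0185). By 96 h LAC had reached 527 ± 50.9 CPM (n = 4) beside 551 ± 48.8 CPM (n = 4) in the parental line, while LB2 stood at 295 ± 21.6 CPM (n = 3).

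In LB1 AGR2 began at 705, 696 and 841 CPM, the highest group of all, and stood at 450, 545, 603 and 617 CPM at 16 h and 606, 514, 596 and 491 CPM at 96 h. Both later groups lay under all 0 h wells. The log2 differences, without a test, were -0.43 ± 0.19 at 16 h and -0.44 ± 0.19 at 96 h, and 1.09 ± 0.19 from the parental line at 0 h. Of the 8 genes, 2 (TFF3 and AGR2) lay without overlap below 0 h in LB1 at 16 h, where 16.2% of all genes had groups without overlap. At 0 h, 2 of the 8 (MUC5AC and AGR2) lay without overlap above the parental line and 2 below it, beside 16.5% of all genes. At 96 h the LB1, parental and LAC groups averaged 552, 551 and 527 CPM. Of the 8 genes, 3 (the trefoil factors) lay without overlap above 0 h and 1 (AGR2) without overlap below it in LB1 at 96 h, where 18.7% of all genes had groups without overlap in either direction. The LB1 counts at 16 h and 96 h include TFF3, whose rise in LB1 was the basis of the choice. No TFF2 well of LB1 at 0 h reached the filter level. These counts are therefore no evidence about the 8 genes as a set.

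Of the regulators, KLF4 was expressed at 28.3 to 41.3 CPM in parental wells at 0 h and at group means of 29.0 to 46.5 CPM throughout. Its log2 change at 96 h was 0.15 ± 0.15 in the parental line (edgeR adjusted p = 0.587), -0.23 ± 0.15 in LAC (adjusted p = 0.312) and 0.11 ± 0.16 in LB2 (adjusted p = 0.816), and no alternative called it. SPDEF had 320 counts in all. Its log2 change in LAC at 16 h, -3.10 ± 0.97, missed the threshold (adjusted p = 0.0696, with 0.0171 to 0.623 over the alternatives). Replicate 1 at 0 h held 3.56 CPM beside 0, 0.296 and 0.477 CPM in the other wells, and without it the change was -1.52. ATOH1 had 39 counts over 46 libraries, was at 0 in 27 of them and was not tested.

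Among 13 other regulators of the secretory lineage 10 were tested, and the calls against 0 h were all higher. In the parental line 3 of the 10 were called at 96 h, among them FOXA1, a forkhead factor of goblet and enteroendocrine differentiation (176 ± 18.9 CPM at 0 h, 351 ± 28.7 at 96 h, log2 0.99, edgeR adjusted p = 3.97e-07), and MYB, a factor of crypt progenitors (14.4 ± 1.53 to 28.8 ± 1.2 CPM, log2 1.00, adjusted p = 0.00305). In LAC 2 of the 10 were called at 96 h, MYB at 1.26 (adjusted p = 5.46e-05) among them. In LB2 1 of the 10 was called, MYB at 1.15 (adjusted p = 0.00359), a call lost in 1 of 18 alternatives; the FOXA1 and MYB calls in the parental line and the MYB call in LAC held in all. Of all genes, 7.78%, 15.4% and 3.55% were called at 96 h in the parental line, LAC and LB2, and over the 11 other settings the regulators called numbered 3 to 5, 2 to 6 and 0 to 5. The median log2 change of the 10 was 0.32 in the parental line, 0.11 in LAC and 0.24 in LB2.

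Notch genes, of which 15 of 18 were tested, gave 3 higher and 0 lower at 96 h in the parental line by the edgeR test, beside 7.78% of all genes. In LAC and LB2 the edgeR test called 0 of the 15 at 96 h, where other settings called up to 5 and 4. Against the parental line at 0 h, 2 of the 15 were called higher and 2 lower in LAC, beside 15.8% of all genes. In LB2 0 were called higher and 2 lower, beside 8.21%. Among these, the receptor NOTCH1 was higher in LAC (25.7 ± 6.24 against 12.4 ± 2.48 CPM in the parental line, log2 1.02, edgeR adjusted p = 0.000523) and the coactivator MAML2 lower in LB2 (5.05 ± 1.46 against 17.0 ± 2.44 CPM, log2 -1.70, adjusted p = 6.31e-08). Both calls held in all 19 alternatives.

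**Figure D4:**
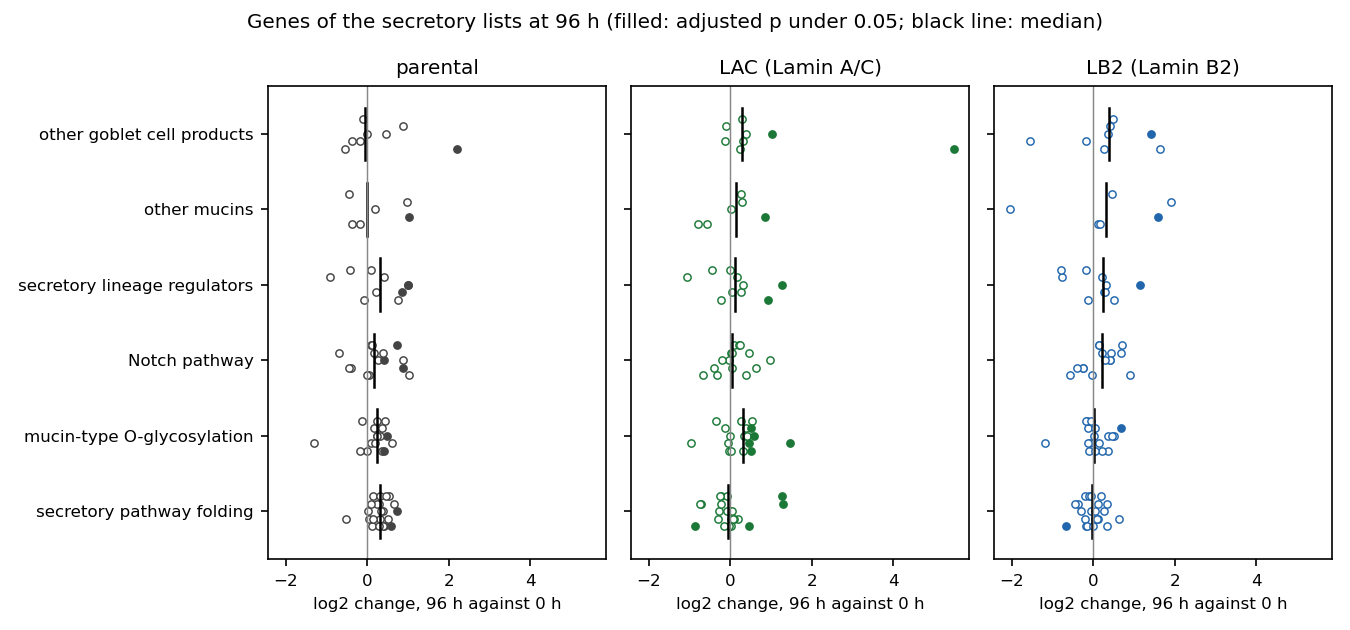
Log2 change at 96 h against 0 h of each tested gene of 6 secretory gene lists in the parental line, LAC and LB2, with filled points where the adjusted p was under 0.05 and a black line at the list's median. Medians lie between -0.06 and 0.38, and the point farthest to the right in LAC is REG4, whose 0 h wells were all at 0. REG4 is also a filled point in the parental line, at 2.20.

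Other goblet cell products numbered 13, of which 8 were tested. SYTL2 rose at 96 h in LAC (48.3 ± 6.90 to 98.4 ± 3.67 CPM, log2 1.01, edgeR adjusted p = 1.5e-05) and in LB2 (51.9 ± 18.5 to 143 ± 8.47 CPM, log2 1.43, adjusted p = 2.05e-07), and both calls held in every alternative, over log2 changes of 0.82 to 1.14 in LAC and 1.26 to 1.63 in LB2. In the parental line SYTL2 stood at 71.6 ± 6.32 CPM at 0 h and 98.4 ± 11.1 CPM at 96 h, without a call. Against the parental response at 96 h, 0 of the 8 were called for LAC, beside 7.4% of all genes. For LB2 1 of the 8 was called, SYTL2 (detailed below), beside 0.368% of all genes. REG4, a lectin of goblet and enteroendocrine cells, had 0 counts in every LAC well at 0 h and 0.231 to 0.503 CPM at 96 h, a level too low for a fold. REG4 was also called higher at 96 h in the parental line (log2 2.20), the only 1 of the 8 called there, beside 7.78% of all genes. Other settings called 0 to 2 of the 8 in that comparison. In LB2 its log2 change was 1.64 without a call, and its mean over all libraries was 0.442 CPM. At 0 h 5 of the 8 were called lower in LAC against the parental line, beside 15.8% of all genes, among them ERN2 (27.3 ± 4.61 against 69.1 ± 8.98 CPM, log2 -1.36, adjusted p = 6.3e-09), which was also lower in LB2 (38.1 ± 8.72 CPM, log2 -0.88, adjusted p = 5.28e-05).

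Enzymes that build the O-glycans of mucins, 18 of 20 tested, gave 5 higher and 0 lower in LAC at 96 h, 2 higher in the parental line and 1 higher in LB2, beside 15.4%, 7.78% and 3.55% of all genes. Over the 11 other settings these counts ran from 1 to 7, 0 to 5 and 0 to 5. At 0 h 3 of the 18 were called higher and 2 lower in LAC against the parental line, beside 15.8% of all genes. FUT3, the Lewis fucosyltransferase, was among the lower ones (8.07 ± 2.09 against 24.8 ± 3.52 CPM in the parental line, log2 -1.71, edgeR adjusted p = 1.27e-05). Of 22 genes of protein folding in the secretory pathway, the setting in which AGR2 works, 3 were higher and 2 lower in LAC at 96 h (15.4% of all genes called) and 3 higher and 0 lower in the parental line (7.78%), where other settings called 1 to 9. LB2 at 96 h gave 0 higher and 1 lower (3.55%). At 0 h 9 of the 22 were called higher and 1 lower in LAC against the parental line, beside 15.8% of all genes. In LAC at 96 h ERO1B, an oxidase that drives disulfide formation, rose from 13.2 ± 2.40 to 32.9 ± 1.91 CPM (log2 1.29, edgeR adjusted p = 1.63e-08). Its response exceeded the parental one by 1.06 (adjusted p = 0.00187), in all 27 alternatives. The chaperone cofactor DNAJB9 rose in LAC by 1.26 (adjusted p = 7.61e-06). The median of the 22 was -0.05 in LAC, 0.31 in the parental line and -0.02 in LB2.

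Genes whose group means tracked a member most closely were ranked by Pearson r of log2(CPM + 0.5) over the 12 groups, among 14005 genes, as a description. For TFF3 the closest were TNFRSF13C (0.91), PCNX2 (0.91), MT-TP (0.90), RPS3AP26 (0.90) and DLEC1 (0.90). TFF1 was closest to RARRES1 (0.94) and ARSG (0.93), MUC5AC to WNT7B (0.96) and TSPAN3 (0.95), MUC13 to ERP27 (0.94) and B3GNT3 (0.94), AGR2 to CEMIP (0.94) and GJB2 (0.93), and KLF4 to EIF4B (0.95). CEMIP, a hyaluronan-binding protein, changed at 96 h by a log2 value of 0.93 in the parental line, 1.96 in LAC and 1.70 in LB2. At 0 h it differed from the parental line by -1.50 in LAC and -2.27 in LB2. In LB1 CEMIP averaged 402, 461 and 455 CPM at 0, 16 and 96 h (means taken in log2), whereas AGR2 was lower there after 0 h. ARSG, an arylsulfatase, changed at 96 h by 0.96 in the parental line, 1.2 in LAC and 0.98 in LB2. These genes were picked for likeness to a member over the same groups, so their changes carry no test.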

How the data were processed

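Raw read counts per gene were deposited by the authors; per the file headers they came from featureCounts 1.6.4 within nf-core/rnaseq 1.4.2, and per the submitters' processing notes the build was GRCh38 and STAR 2.7.10a and SAMtools 1.10 were used. Whether reads were counted by strand is not given in the sources used here, so a gene and an overlapping antisense partner may share reads. Of 62756 genes, 42341 (67.5%) had a symbol, and 3 broken lines were left out.

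Counts were filtered with filterByExpr, scaled by TMM and fitted over all 46 libraries with 1 coefficient per group in edgeR 4.0.16 (R 4.3.3). The quasi-likelihood test was two-sided, adjusted by Benjamini-Hochberg over 21484 genes, and called at an adjusted p under 0.05. Comparisons set 16 h and 96 h against 0 h within a line, LAC or LB2 against the parental line at 0 h, and each response against the parental response. LB1 was described without a test. Alternatives used DESeq2 1.42.0, limma 3.58.1 (voom), other scaling, filters and designs, and each replicate left out; leaving out the 3 libraries that stood apart was chosen after seeing the data. The edgeR steps were tested on simulated data.

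The members and lists were chosen with earlier results of these data known. All 10 members are named. From each other list, at most the 2 called genes with the largest change and a mean of at least 1 CPM could be named in a comparison, and of these mainly the ones whose call held in all alternatives are given, a choice made after their values were seen. All 4 same-numbered pairs of wells had a positive r only for LAC at 16 h against 0 h (r 0.12 to 0.69). Even there only 1 of the 4 wells matched its own number best, so pairing by replicate number was not shown. Blocking on the numbers changed no member's call in that comparison.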

Additional observations from a re-analysis of the deposited data

Results flagged for a closer look

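Among 80 combinations of a member and a group of 4 wells, 4 held a well far from the other 3 by Dixon's criterion, where chance gives about 1 in 20. They were TFF2 in replicate 4 of the parental line at 0 h (0.725 CPM, from 3 counts), TFF2 in replicate 3 of LB2 at 16 h (8.70 CPM, from 4 counts), SPDEF in replicate 1 of LAC at 0 h (3.56 CPM) and AGR2 in replicate 1 of LB2 at 0 h (95.4 CPM). The last 3 wells are the libraries that stood apart over all genes.

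AGR2 moved in opposite directions in every well of LB1 and of another line. At 16 h its log2 change was -0.43 in LB1 and 0.47 in LB2. At 96 h it was -0.44 in LB1, beside 0.65 in the parental line, 1.18 in LAC and 0.55 in LB2. These differences were not tested.

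In the tests of a tagged line's response against that of the parental line, SYTL2 differed in LB2 at 96 h by a log2 value of 0.97 (edgeR adjusted p = 0.0494), a call lost in 15 of 26 alternatives. In LAC at 96 h 7.4% of all 21484 genes were called in this test, in either direction. Beside that share, the lists held 1 higher and 3 lower calls among 22 folding genes tested. They held 2 lower among 10 regulators and 2 lower among 8 absorptive markers. There was 1 lower each among 15 Notch genes, 18 O-glycosylation genes and the stem cell genes tested. Those within the naming rule were the oxidase ERO1B (1.06) and, on the lower side, the secretory regulators FOXA1 (-0.67) and ELF3 (-0.60), the Notch coactivator MAML1 (-0.61), the glycosyltransferase GALNT2 (-0.77), the folding factor CRELD2 (-1.01), the intestinal factors CDX2 (-1.22) and HNF4A (-0.62), and the Wnt target AXIN2 (-0.70). CDX2 already differed in LAC at 16 h (-0.98).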

How the results depend on the processing

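Of 10 calls among the members none changed sign in any alternative. Of 86 combinations of member and comparison without a call, 16 were called in at least 1 alternative and 28 changed sign in at least 1, with 0 doing both. Members called changed as follows. With the compared groups fitted alone, 1 was called in the parental line at 16 h, 0 in LB2 at 96 h and 0 in LB2 against the parental line at 0 h. In the parental line at 96 h (2 in the main test), scaling by relative log expression gave 1, library size only 0 and DESeq2 1. In LAC at 16 h (0), no low-count filter and limma voom gave 1 each, and in LAC at 96 h (3) voom gave 5. In LB2 at 96 h (2), voom gave 5, and DESeq2, the replicate block, removal of the GC and length trend, and the latter with the block gave 4 each. In LB2 at 16 h (0), that removal with the block gave 1. Calls over all 21484 genes moved with the setting too. In LB2 at 96 h they were 419 higher and 343 lower in the main test, and 671 higher and 957 lower with the GC and length trend removed. More members called in a setting is therefore not by itself a result about the members. In LAC against the parental line at 0 h (1), library size only, voom, and removal of the GC and length trend with or without the replicate block gave 3, and no filter, leaving out libraries under 5000000 counts and leaving out the 3 that stood apart gave 2. For the LB2 response against the parental one at 96 h (0), voom gave 1. The block changed no other count of members by over 1.5 times, and same-numbered wells were not shown to share more than a number. Leaving out 1 replicate gave 0 to 2 in the parental line at 96 h, 0 to 1 in LAC at 16 h, 0 to 2 in LB2 at 96 h, 0 to 1 in LAC and 1 to 2 in LB2 against the parental line at 0 h. Counts over the gene lists at 96 h moved by over 1.5 times in 67 of 198 recomputations. With library size only, the median change of all genes in LAC at 96 h moved from 0.03 to 0.15. Depth limits MUC2, ATOH1, SPDEF and TFF2.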

Other observations

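Genes of other intestinal fates were measured beside the goblet cell genes. CDX2, the caudal factor of intestinal identity, rose in the parental line from 88.7 CPM at 0 h to 219 CPM at 16 h (log2 1.30) and 209 CPM at 96 h (log2 1.24), and rose in LB2 by 1.19 and 0.77, both calls lost in 1 alternative. Of 6 Paneth cell markers only PRSS2, a trypsin, was tested, while REG3A was at 0 in all 46 libraries, MMP7 in 40, LYZ in 36, and PLA2G2A and ITLN2 in 32 each. PRSS2 rose at 96 h by 1.37 in the parental line, 1.01 in LAC and 1.30 in LB2. Of 7 stem cell markers 5 were tested, and 1 was higher at 96 h in each of these lines, beside 0, 1 and 0 lower, with list medians of 0.18, -0.24 and -0.08. The higher one was EPHB2, a receptor of the crypt base, at 1.63, 1.28 and 1.32, and OLFM4 was at 0 in all 46 libraries. Of all genes 7.78%, 15.4% and 3.55% were called.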
